A study of Bos taurus with 9 samples.

Results

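The proteasome genes of the bovine liver were described from their read counts in cows under heat stress (HS), pair-fed cows (PF) and thermoneutral cows (TN). They were taken as every gene of the count table whose symbol begins with PSM, one of the letters A to G and a digit, which gave 49 of the 28786 genes listed. Of these, 46 encode subunits of the complex, its activators and inhibitor, or its assembly chaperones, and were detected in the liver. *PSMA8* and *PSMB11*, the core subunits particular to testis and thymus, had 0 counts in all 9 libraries, where a count of 0 allows up to 3 counts, or from 0.111 to 0.202 CPM (the CPM scale throughout is normalized for library size and composition by TMM) across the libraries. *PSMC3IP* matched by its symbol alone, since it encodes a cofactor of meiotic recombination and not a subunit, and it is kept in the counts over the 47 genes tested.

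The cows were lactating Holsteins that shared the same housing and acclimation before they were allocated to a condition, and 1 liver biopsy per cow was taken late in the treatment, for 3 cows and 3 libraries in each group. The HS group was housed at a raised temperature, and so a raised temperature-humidity index, by day and night. The PF group was kept in thermoneutrality with its feed restricted to the intake of the HS cows, and the TN group was kept in thermoneutrality and was not pair-fed. HS vs. TN thus compared heat together with the lower intake, and HS vs. PF compared heat at a matched intake. PF vs. TN compared the restricted intake without heat. Per the paper, the average days in milk also differed, lowest in TN and highest in PF cows, and cannot be told apart from the condition. A biopsy holds every cell type of the liver, so that fewer cells of a type and less RNA per cell cannot be told apart in these values.

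The proteasome is the main protease for proteins marked with ubiquitin in the cytosol and nucleus, and damaged or misfolded proteins that chaperones cannot refold are among its substrates. Its 20S core is a barrel of outer rings of alpha subunits, which gate the entry, and inner rings of beta subunits, of which the products of *PSMB5*, *PSMB6* and *PSMB7* cut the peptide chain. The 19S cap binds, unfolds and deubiquitinates the substrate, other activators can dock in its place, and interferon gamma induces the immunoproteasome, in which *PSMB8*, *PSMB9* and *PSMB10* replace the catalytic subunits and alter the peptides presented by MHC class I.

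The libraries held 16874444 to 22557047 counts. All 12 hepatocyte markers listed for the tissue check were detected, and their summed level was 19806 CPM in TN replicate 1 against 69135 to 150148 CPM in the other 8 cows. TN replicate 1 therefore stood apart from its group in this sum. *ALB* alone gave 8762 CPM of it in TN replicate 1 and 81376 CPM in HS replicate 3, the cow with the highest sum. *APOA1* (841 CPM), *ASGR1* (430 CPM) and *HNF4A* (386 CPM) were not at their lowest in TN replicate 1, while the other listed markers were. The share of counts on mitochondrial protein-coding genes was 13.6 to 22.2% in TN, 6.90 to 7.79% in PF and 3.84 to 5.68% in HS cows. For the proteasome genes, most medians and counts that rest on TN cows are given below with and without TN replicate 1. Those counts are by direction, fold change or unadjusted p. Counts of intervals and of groups without overlap, and most values of the other gene lists, are given with all cows only. The part of the hepatocyte marker level or the mitochondrial share in any of these values was not tested.

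Over the 46 detected subunit, regulator and chaperone genes, 2 cows held most of the extreme values. TN replicate 1 had the lowest level of the 9 cows in 35 genes and the highest in 0. PF replicate 2 had the highest level in 29 genes and the lowest in 0. The other 7 cows were the lowest in at most 4 genes and the highest in at most 8. Relative to the mean of the 9 cows, the median over these genes on the log2 CPM scale was -0.65, 0.14 and 0.03 in the TN cows. It was 0.20, 0.48 and 0.02 in the PF cows, and -0.16, -0.21 and 0.24 in the HS cows. The HS cows thus lay within the range of the TN cows except for HS replicate 3, and all 3 PF cows were at or above 0.

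**Figure D1:**
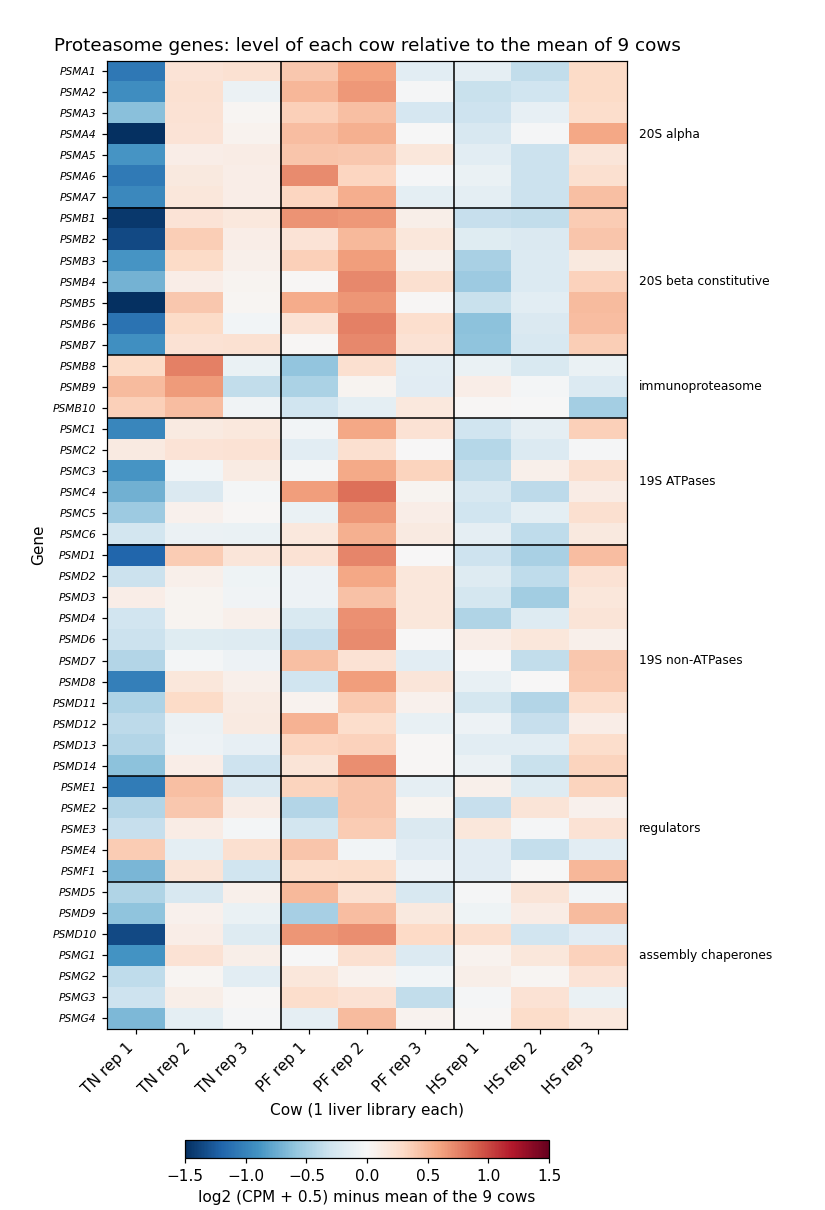
Level of 46 proteasome genes (rows, grouped by role in the complex) in the 9 cows (columns), as log2 CPM relative to the mean of the 9 cows. The TN replicate 1 column is the lowest in 35 genes, while the immunoproteasome genes are not at their lowest in that cow.

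The low level in TN replicate 1 was not equal over the complex. Its median was -0.97 for the 7 alpha subunit genes and -1.10 for the 7 constitutive beta subunit genes, and -0.61 for the 7 assembly chaperone genes. The median of the 3 immunoproteasome genes in the same cow was 0.36. Within groups, the SD on the log2 scale had a median over the proteasome genes of 0.44 for the TN, 0.32 for the PF and 0.29 for the HS group, and over all 14151 genes tested in every pair it was 0.36, 0.34 and 0.30. The proteasome genes were therefore more scattered than the typical gene in the TN group and close to it in the PF and HS groups. The TN value includes TN replicate 1, the lowest cow in 35 of the 46 genes, and was not computed without that cow.

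In HS vs. TN, no proteasome gene passed the test, which does not show that the levels of the groups were alike. None of the 47 proteasome genes tested was a differentially expressed gene (DEG, changed over 1.5-fold at an FDR below 0.1) by the edgeR quasi-likelihood test, where 13 of 14582 genes, or 0.0892%, were DEGs. DESeq2 called 0 of the 47 as well, where it called 1.32% of its 20466 genes. The edgeR test gave 0 proteasome genes with an unadjusted p under 0.05 that were higher in HS cows, where 4.13% of all genes were, and 0 that were lower, where 5.23% were. Without TN replicate 1 both counts were 0, while 1 gene was lower without TN replicate 2 and 2 were lower without TN replicate 3. The smallest FDR was 0.550, and over the alternatives it ranged from 0.364 to 0.889.

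The log2 fold changes of HS vs. TN ran from -0.52 to 0.40, with a median of 0.11 against -0.01 over all genes tested. They were above 0 in 33 of 47 genes, where 49.3% of all genes were, but in 12 of 47 without TN replicate 1 and in 17 of 47 without HS replicate 3. They were below 0 in the other 14 genes, where 50.7% of all genes were. The median was -0.15 without the first of these cows and -0.09 without the other, so that its direction rested on single cows. The fold change was over 1.5 in 0 genes in either direction, where it was in 9.89% of all genes for higher and 13.1% for lower levels, and also in 0 without TN replicate 1. It was over 1.5 in 5 genes higher without TN replicate 2, in 2 genes lower without TN replicate 3 and in 1 gene lower without HS replicate 2. The 95% interval of the fold change held no change in all 47 genes. It kept 40 genes below a 2-fold higher and 44 above a 2-fold lower level in HS cows, and 13 below a 1.5-fold higher and 23 above a 1.5-fold lower level. Differences smaller than these bounds were not excluded by the intervals.

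By role, the median log2 fold change of HS vs. TN was 0.09 for the alpha subunits, 0.11 for the constitutive beta subunits and 0.10 for the 6 ATPases of the cap, which unfold the substrate. It was 0.00 for the 11 other cap subunits, 0.19 for the 5 activators and inhibitor and -0.44 for the 3 immunoproteasome subunits. Without TN replicate 1 these medians were -0.17, -0.20, -0.07, -0.11, -0.07 and -0.38 in the same order, so that all of them were below 0. The 7 assembly chaperones had a median of 0.31 and all 7 were above 0, but without TN replicate 1 it was 0.12 with 5 of 7 above 0.

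Groups that did not overlap were found for 3 genes higher in HS cows, where 8.37% of all genes were, and for 2 genes lower, where 7.7% were. *PSMD6*, a scaffold subunit of the cap, had 23.0, 24.2 and 22.8 CPM in HS cows and 17.0, 18.8 and 18.7 CPM in TN cows. All 3 HS cows were above all TN cows, but its log2 fold change of 0.34 (SE 0.19) had an FDR of 0.576. *PSMG4*, which helps to assemble the alpha ring, had 81.9, 98.2 and 90.4 CPM in HS cows and 50.4, 73.3 and 80.3 CPM in TN cows. The groups were narrowly apart, at a log2 difference of 0.39 (SE 0.24) and an FDR of 0.605. *PSMG2*, another chaperone of the alpha ring, had 11.3, 10.8 and 12.2 CPM in HS cows and 8.0, 10.7 and 9.42 CPM in TN cows. HS replicate 2 and TN replicate 2 nearly met, and the log2 fold change was 0.27 (SE 0.23, FDR 0.701).

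The 2 genes lower without overlap were *PSMC2* and *PSME4*. *PSMC2*, an ATPase of the cap, had 64.2, 74.8 and 85.7 CPM in HS cows and 95.2, 99.3 and 100.5 CPM in TN cows. The TN cows were close together here, TN replicate 1 included, while the HS cows were spread below them, at a log2 difference of -0.41 (SE 0.23) and an FDR of 0.575. *PSME4*, which encodes the activator PA200, had 38.8, 33.9 and 39.1 CPM in HS cows and 57.0, 39.4 and 51.5 CPM in TN cows. TN replicate 2 was close to the HS cows, and the log2 fold change was -0.42 (SE 0.22, FDR 0.560). *PSMD9*, a chaperone of the ATPase ring, had the third smallest p among the genes higher in HS cows, with 16, 18.1 and 23.4 CPM against 10.8, 17.5 and 15.6 CPM in TN cows. Its groups overlapped, and its log2 fold change was 0.38 (SE 0.25, FDR 0.630).

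**Figure D2:**
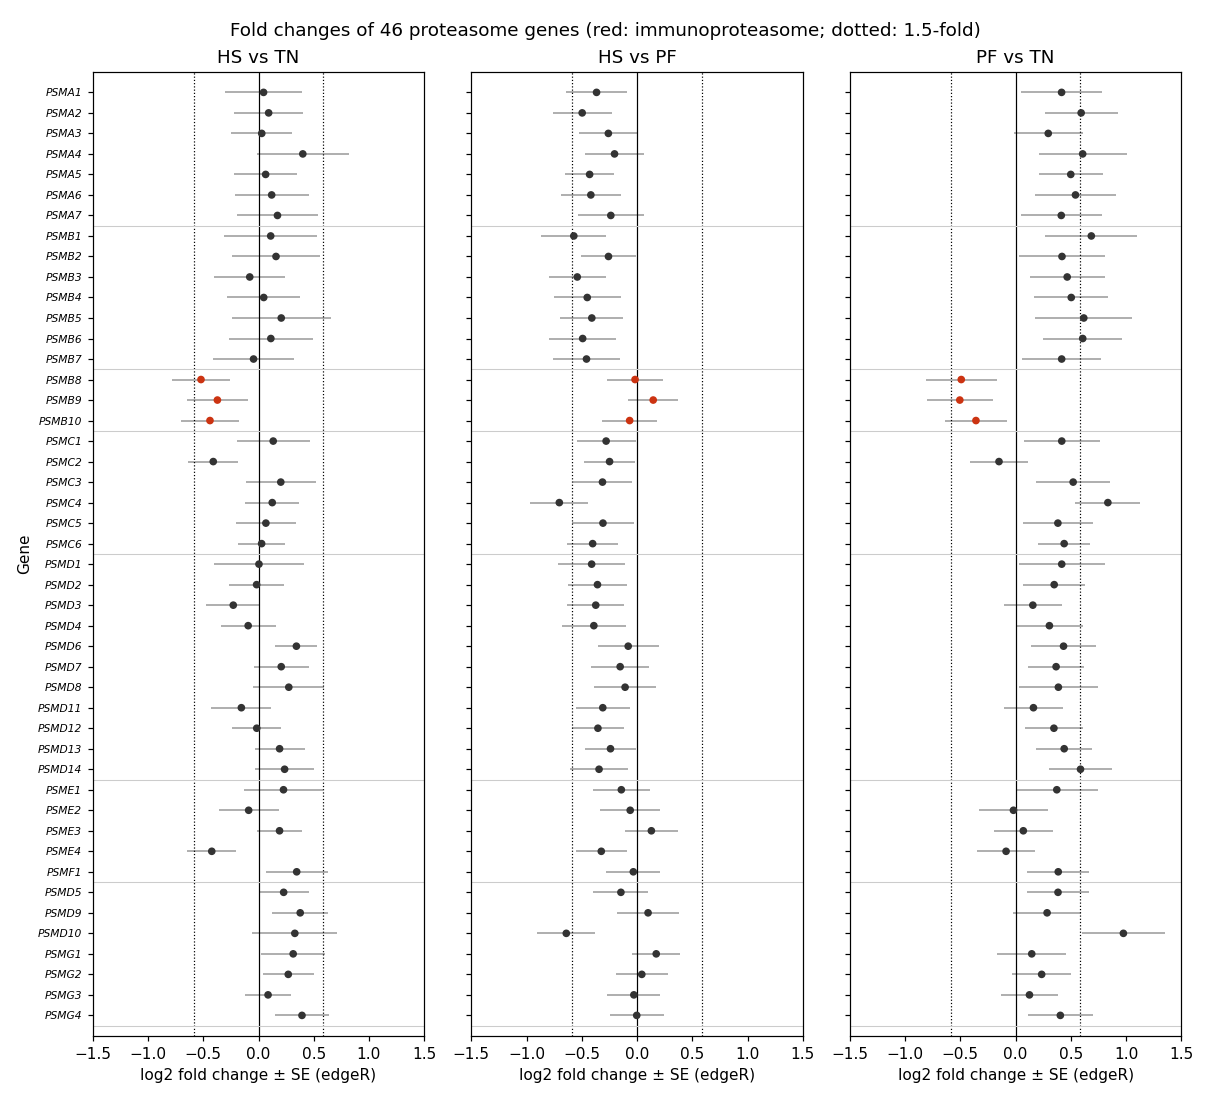
Log2 fold change of 46 proteasome genes (rows, grouped by role) in each pair of groups, where points are the edgeR estimates, bars are ± SE, red points are the immunoproteasome genes and dotted lines mark 1.5-fold. In HS vs. TN the points lie between -0.52 and 0.40, and *PSMC4* and *PSMD10* lie beyond the dotted lines in both other panels.

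In PF vs. TN, most genes of the core and the cap had a higher mean in PF cows, and the immunoproteasome genes a lower one, but no gene passed the test. The number of DEGs was 0 of 47 by edgeR and 0 by DESeq2, against 0.0% and 0.449% of all genes. The smallest FDR was 0.697, and it ranged from 0.353 to 1.00 over the alternatives. The unadjusted p was under 0.05 in 2 genes higher in PF cows, *PSMC4* and *PSMD10*, where 2.99% of all genes were, and in 0 genes lower, where 3.89% were. The count of higher genes was 1 without TN replicate 1, 0 without PF replicate 2, 3 without PF replicate 3 and 6 without TN replicate 2, and 1 gene was lower without TN replicate 3.

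The log2 fold changes of PF vs. TN had a median of 0.39 against -0.01 over all genes. They were above 0 in 40 of 47 genes, where 48.8% of all genes were, and in 38 of 47 without TN replicate 1. The size depended on single cows, with a median of 0.20 without TN replicate 1 and 0.24 without PF replicate 2. The fold change was over 1.5 in 8 genes higher in PF cows, where it was in 9.33% of all genes. These were *PSMA2*, *PSMA4*, *PSMB1*, *PSMB5*, *PSMB6*, *PSMC4*, *PSMD14* and *PSMD10*. Without TN replicate 1 there were 2 such genes, without PF replicate 2 there were 3, and there were 21 without TN replicate 2, 14 without TN replicate 3 and 13 without PF replicate 3. The only gene over 1.5-fold lower in PF cows, where 13.4% of all genes were, was *PSMC3IP*, with counts of 0 to 37 per cow, and there were 3 such genes without TN replicate 3 or without PF replicate 2. Of the 95% intervals, 45 of 47 held no change, and 22 kept the gene below a 2-fold higher level in PF cows.

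By role, the median log2 fold change of PF vs. TN was 0.50 for the alpha and 0.50 for the constitutive beta subunits, 0.43 for the ATPases and 0.37 for the other cap subunits. It was 0.28 for the assembly chaperones, 0.07 for the activators and inhibitor, and -0.49 for the immunoproteasome subunits. Without TN replicate 1 it was 0.23 for the alpha, 0.22 for the constitutive beta, 0.25 for the ATPase and 0.22 for the other cap subunits, 0.14 for the chaperones, 0.04 for the activators and inhibitor and -0.40 for the immunoproteasome subunits. The 7 genes below 0, where 51.2% of all genes were, were *PSMB8*, *PSMB9*, *PSMB10*, *PSMC2*, *PSME2*, *PSME4* and *PSMC3IP*, so all 3 immunoproteasome genes were among them.

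*PSMC4*, an ATPase of the cap, had 76.4, 87.7 and 50.6 CPM in PF cows and 29.7, 42.3 and 48.1 CPM in TN cows. All PF cows were above all TN cows, with PF replicate 3 just above TN replicate 3. The log2 fold change was 0.83 (SE 0.29), with an unadjusted p of 0.0159 and an FDR of 0.697 by edgeR and an FDR of 0.373 by DESeq2. *PSMD10*, the chaperone gankyrin of the ATPase ring, had 15.4, 15.8 and 11.9 CPM in PF cows and 3.44, 10.2 and 8.28 CPM in TN cows. The groups did not overlap, and TN replicate 1 was far below the other 2 TN cows. The log2 fold change was 0.98 (SE 0.37, unadjusted p 0.0239, FDR 0.708), and without that cow it was 0.64. *PSMD14*, the deubiquitinase of the cap that removes the ubiquitin chain, had 25.8, 36.9 and 22.7 CPM in PF cows and 14.5, 24.3 and 18.1 CPM in TN cows. PF replicate 3 lay below TN replicate 2, and the log2 fold change was 0.59 (SE 0.29, FDR 0.709).

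Groups without overlap in PF vs. TN were found for 5 genes higher in PF cows, where 6.81% of all genes were, and for 0 lower, where 6.37% were. They were *PSMC4*, *PSMD10*, *PSMA5* of the alpha ring, *PSMC6* of the ATPase ring and *PSMD13* of the cap. *PSMC6* had 45.5, 59.5 and 45.1 CPM in PF cows and 33.8, 38.6 and 38.1 CPM in TN cows. TN replicate 1 was close to its group in this gene, and the log2 fold change was 0.44 (SE 0.24, FDR 0.709). *PSMD13* had 80.2, 81.3 and 64.7 CPM in PF cows against 47.2, 60.6 and 58.8 CPM in TN cows, for a log2 fold change of 0.44 (SE 0.25, FDR 0.709).

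In HS vs. PF, at a matched intake, most proteasome genes had a lower mean in HS cows, and again none passed the test. The number of DEGs was 0 of 47 by edgeR and 0 by DESeq2, against 0.0276% and 0.596% of all genes, and the smallest FDR was 0.795, with a range of 0.483 to 1.00 over the alternatives. The unadjusted p was under 0.05 in 0 genes higher in HS cows, where 3.07% of all genes were, and in 2 genes lower, *PSMC4* and *PSMD10*, where 2.25% were. This last count was 10 without HS replicate 3, 5 without PF replicate 3, 1 without HS replicate 1, and 0 without PF replicate 1, PF replicate 2 or HS replicate 2.

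The log2 fold changes of HS vs. PF had a median of -0.28 against 0.01 over all genes, and it was -0.13 without PF replicate 2 and -0.48 without HS replicate 3. They were below 0 in 41 of 47 genes, where 49.1% of all genes were, and in 34 of 47 without PF replicate 2. The 6 genes above 0, where 50.9% of all genes were, were *PSMB9*, *PSME3*, *PSMD9*, *PSMG1*, *PSMG2* and *PSMC3IP*, of which the PSMG genes and *PSMD9* are assembly chaperones. The fold change was over 1.5 in 2 genes lower in HS cows, *PSMC4* and *PSMD10*, where it was in 6.82% of all genes, and in 1 gene higher, *PSMC3IP*, where it was in 9.26%. The count of lower genes was 9 without HS replicate 3, 6 without PF replicate 3, 4 without PF replicate 1, 1 without HS replicate 2 and 0 without PF replicate 2, and that of higher genes was 0 without HS replicate 2. The 95% intervals kept 42 genes below a 1.5-fold higher level in HS than in PF cows and 34 above a 2-fold lower level. Both comparisons of the PF group share its 3 cows, so the values of HS vs. PF and PF vs. TN are not independent of each other.

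By role, the median log2 fold change of HS vs. PF was -0.37 for the alpha subunits, -0.46 for the constitutive beta subunits, -0.31 for the ATPases and -0.34 for the other cap subunits. It was -0.06 for the activators and inhibitor, 0.00 for the assembly chaperones and -0.02 for the immunoproteasome subunits. Without PF replicate 2 it was -0.20 for the alpha, -0.28 for the constitutive beta, -0.15 for the ATPase and -0.16 for the other cap subunits, and 0.21 for the immunoproteasome subunits. *PSMC4* had 41.6, 37.4 and 53.1 CPM in HS cows, so that HS replicate 3 lay above PF replicate 3, and its log2 fold change of HS vs. PF was -0.70 (SE 0.26, unadjusted p 0.0216, FDR 0.795). *PSMD10* had 11.4, 7.71 and 8.47 CPM in HS cows, all below the 3 PF cows. Its log2 fold change was -0.64 (SE 0.26, unadjusted p 0.0334, FDR 0.895), and it was the only gene lower in HS cows without overlap, where 4.58% of all genes were, while 0 were higher, where 5.95% were. *PSMB3*, a noncatalytic beta subunit, had 63.3, 76.7 and 97.9 CPM in HS cows and 114, 137 and 93.9 CPM in PF cows. HS replicate 3 lay above PF replicate 3, and the log2 fold change was -0.54 (SE 0.26, FDR 0.949). *PSMG1*, which builds the alpha ring together with *PSMG2*, had 23.0, 24.8 and 28.2 CPM in HS cows and 21.9, 26.1 and 19.1 CPM in PF cows. Its groups overlapped, for a log2 difference of 0.17 (SE 0.22, FDR 1.00).

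**Figure D3:**
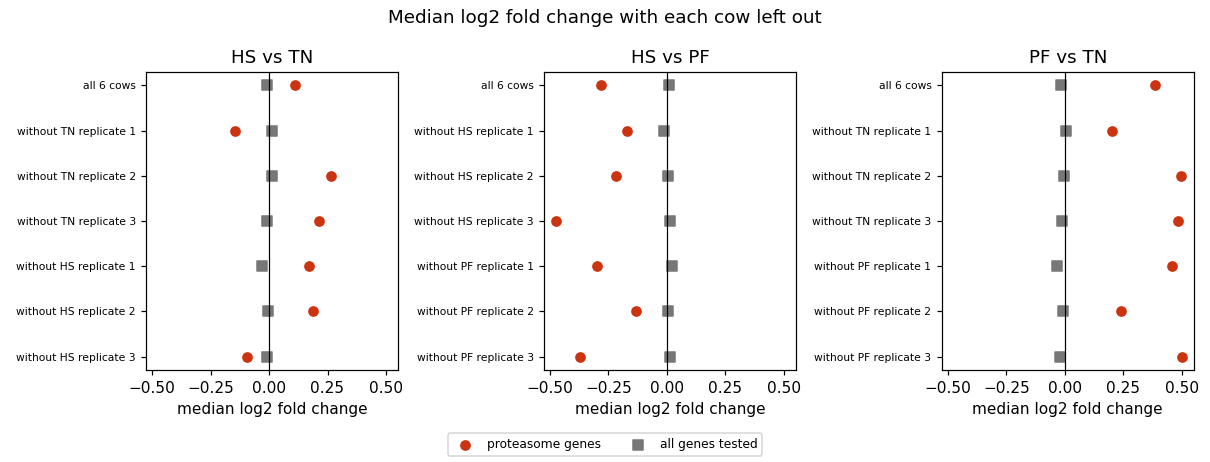
Median log2 fold change (horizontal axis) over the 47 proteasome genes (circles) and over all genes tested (squares) in each pair of groups, with all 6 cows and with 1 cow left out at a time (rows). The median over the proteasome genes in HS vs. TN lies between -0.15 and 0.26 and changes sign, while in HS vs. PF it stays between -0.48 and -0.13 and in PF vs. TN between 0.20 and 0.50.

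The catalytic subunits were compared in their constitutive and their immunoproteasome forms. *PSMB5*, which carries the chymotrypsin-like activity, had 23.1, 96.5 and 74.5 CPM in TN cows, 108, 116 and 74.0 CPM in PF cows and 58.0, 65.4 and 102 CPM in HS cows. TN replicate 1 was far below the other 8 cows, which overlapped between the groups. *PSMB6*, which carries the caspase-like activity, had 32.8, 87.1 and 68.9 CPM in TN cows, 82.7, 120.3 and 84.8 CPM in PF cows and 46.2, 61.3 and 97.9 CPM in HS cows. *PSMB7*, which carries the trypsin-like activity, had 57.2, 126 and 127 CPM in TN cows, 109, 179 and 126 CPM in PF cows and 71.2, 91.4 and 139.8 CPM in HS cows. TN replicate 1 was the lowest and PF replicate 2 the highest cow in both genes, and HS replicate 1 was the second lowest.

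The immunoproteasome genes had another order of cows. *PSMB8*, the counterpart of *PSMB5*, had 91.1, 126 and 69.2 CPM in TN cows, 49.1, 88.0 and 66.7 CPM in PF cows and 69.4, 63.2 and 69.1 CPM in HS cows. The HS cows were close together and TN replicate 3 lay among them, while the other TN cows were above every HS and PF cow. *PSMB9*, the counterpart of *PSMB6*, had 34.6, 38.8 and 19.1 CPM in TN cows, 17.7, 25.6 and 22.0 CPM in PF cows and 26.6, 24.2 and 21.4 CPM in HS cows. *PSMB10*, the counterpart of *PSMB7*, had 106, 115 and 80.1 CPM in TN cows, 67.2, 75.2 and 93.0 CPM in PF cows and 83.9, 82.8 and 58.4 CPM in HS cows. In all 3 genes TN replicates 1 and 2 were the highest of the 9 cows, and TN replicate 3 was within the range of the other groups. TN replicate 2, the highest cow in all 3, also stood apart in some genes that interferons induce, but not in others. It had 67.4 CPM of the chemokine gene *CXCL10* against at most 18.3 CPM in the other 8 cows, 61.1 against at most 19.7 CPM of *CXCL9*, 9.57 against at most 2.55 CPM of *GBP5* and 61.2 against at most 40.3 CPM of *ISG15*. Among the others, it had 8.27 CPM of *IFIT3* against 8.61 CPM in HS replicate 3, and 0.864 CPM of *SOCS1* against 2.19 CPM in TN replicate 1. The part of these genes in the immunoproteasome levels was not tested.

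**Figure D4:**
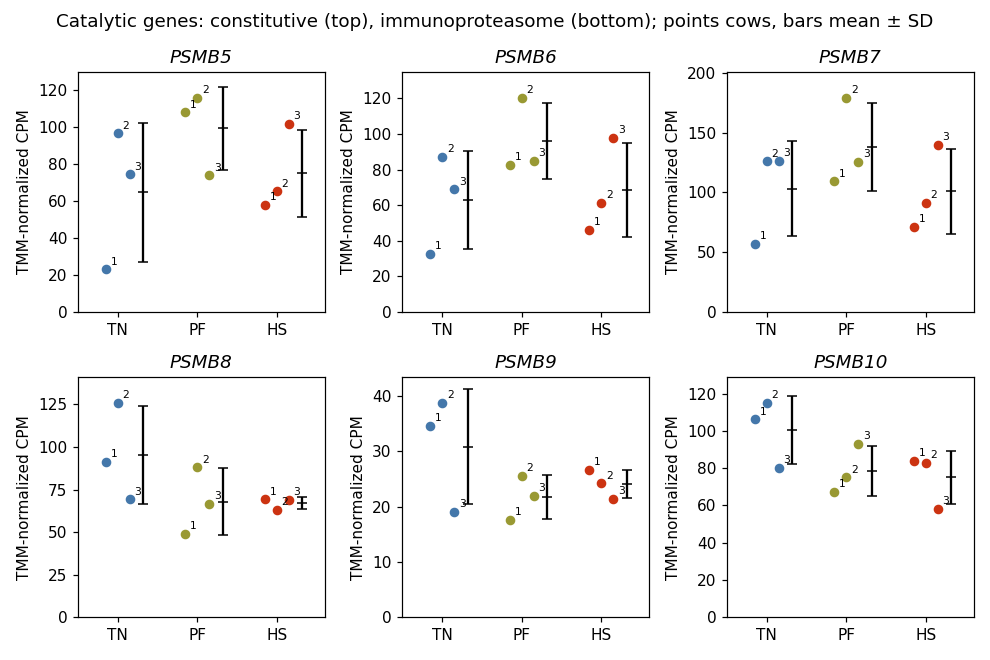
Level in CPM of the 3 constitutive catalytic genes (top) and their immunoproteasome counterparts (bottom) in each cow, with the mean and SD of n = 3 cows per group. TN replicate 1 is the lowest cow in the 3 constitutive genes, and TN replicates 1 and 2 are the 2 highest cows in the 3 immunoproteasome genes.

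In HS vs. TN the log2 fold change was -0.52 (SE 0.27, FDR 0.550) for *PSMB8*, -0.37 (SE 0.28, FDR 0.655) for *PSMB9* and -0.44 (SE 0.26, FDR 0.588) for *PSMB10*. In PF vs. TN it was -0.49 (SE 0.32, FDR 0.722), -0.51 (SE 0.30, FDR 0.710) and -0.36 (SE 0.28, FDR 0.751) in the same order. None of the 6 differences passed the test, and all 6 stayed below 0 with each cow left out in turn, but their size depended on TN replicate 2. Without that cow, HS vs. TN was -0.27 for *PSMB8*, -0.17 for *PSMB9* and -0.33 for *PSMB10*, and PF vs. TN was -0.23, -0.30 and -0.24. For *PSMB8* in PF vs. TN it was -0.30 without PF replicate 1, and for *PSMB10* in HS vs. TN -0.28 without HS replicate 3. In HS vs. PF the log2 fold changes were -0.02 (SE 0.25) for *PSMB8*, 0.15 (SE 0.23) for *PSMB9* and -0.07 (SE 0.25) for *PSMB10*, each with an FDR of 1.00. The interval for *PSMB8* in HS vs. TN ran from -1.12 to 0.07, so that it held both a 2-fold lower level and no difference.

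The summed level of 12 lymphocyte markers, all of them detected, was 151 to 184 CPM in TN, 132 to 149 CPM in HS and 119.8 to 143 CPM in PF cows. Every TN cow was above every HS and PF cow in this sum, narrowly for TN replicate 1 and HS replicate 3. *PTPRC* alone gave 58.2, 60.9 and 63.2 CPM of it in TN cows. Of the 12 markers, 4 had a log2 fold change above 0 in HS vs. TN and 2 in PF vs. TN, where 49.3% and 48.8% of all genes had. The 10 macrophage markers, all detected, summed to 1292 to 2889 CPM in TN, 1912 to 3004 CPM in HS and 1289 to 1769 CPM in PF cows, which overlapped between TN and both other groups, while every HS cow was above every PF cow. In HS vs. PF, 7 of the 10 macrophage markers were higher at an unadjusted p under 0.05, where 3.07% of all genes were, and 9 of 10 were higher without overlap, where 5.95% were, but none was a DEG by edgeR or DESeq2. In HS vs. TN, DESeq2 called 1 of the 10 macrophage markers, *MARCO*, at an FDR of 0.0119, where it called 1.32% of all genes. Its edgeR log2 fold change was 1.45 (SE 0.40, FDR 0.381), and edgeR called 0 of the 10. The part of these cell type markers in the levels of the immunoproteasome genes was not tested. *PSMB10* overlaps *LCAT*, the gene of a plasma cholesterol enzyme made in the liver, on ARS-UCD2.0 (RefSeq), which is newer than the assembly used for the counts. *LCAT* had 55.5 to 89.1 CPM in TN, 119 to 139 CPM in PF and 87.3 to 162 CPM in HS cows, so that reads shared between the genes could touch the values of *PSMB10*.

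The ratio of an immunoproteasome gene to its constitutive counterpart within a cow does not depend on the library scaling. The log2 ratio of the counts of *PSMB8* to *PSMB5* was 1.98, 0.38 and -0.11 in TN cows, -1.14, -0.40 and -0.15 in PF cows and 0.26, -0.05 and -0.56 in HS cows. The PF cows were all below the TN cows, and TN replicate 1 was far above every other cow. The difference of PF minus TN was -1.31 (SE 0.70), with an exact two-sided permutation p of 0.1 (adjusted over 9 tests, 0.45), the smallest that 3 cows against 3 allow. Without TN replicate 1 the difference was -0.70. For *PSMB9* to *PSMB6* the ratio was 0.08, -1.17 and -1.85 in TN cows, -2.23, -2.23 and -1.95 in PF cows and -0.79, -1.34 and -2.19 in HS cows. The PF cows were again below the TN cows, narrowly for TN replicate 3, with a difference of -1.15 (SE 0.57, exact permutation p 0.1, adjusted 0.45) and of -0.62 without TN replicate 1.

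For *PSMB10* to *PSMB7* the ratio was 0.89, -0.13 and -0.66 in TN cows, -0.70, -1.25 and -0.43 in PF cows and 0.24, -0.14 and -1.26 in HS cows. The groups overlapped, with a difference of PF minus TN of -0.83 (SE 0.52, exact permutation p 0.2, adjusted 0.45) and of -0.40 without TN replicate 1. The differences of HS minus TN were -0.87, -0.46 and -0.42 for the 3 ratios, with exact permutation p-values of 0.3, 0.6 and 0.5, and without TN replicate 1 they were -0.25, 0.07 and 0.01. The differences of HS minus PF were 0.45, 0.69 and 0.41, with exact permutation p-values of 0.4, 0.2 and 0.5. The highest ratio in each of the 3 pairs belonged to TN replicate 1.

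**Figure D5:**
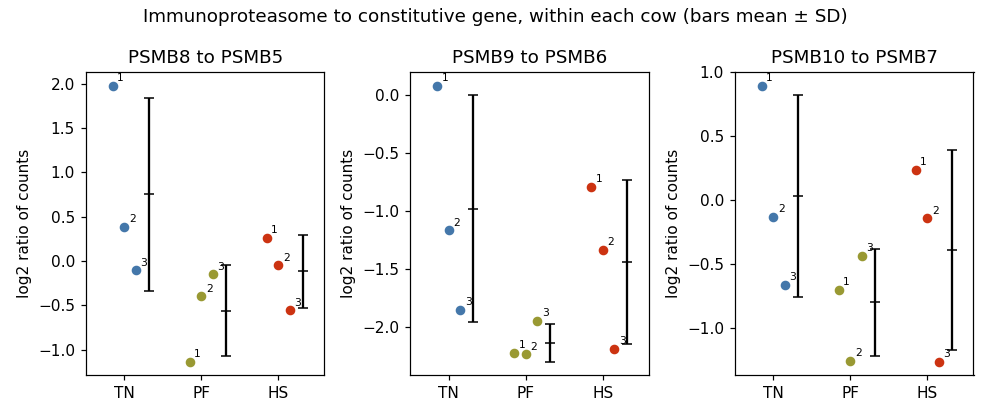
Log2 ratio of the counts of an immunoproteasome gene to those of its constitutive counterpart in each of the 9 cows, with the mean and SD of n = 3 cows per group. The PF cows lie below all TN cows for *PSMB8* to *PSMB5* and *PSMB9* to *PSMB6*, and TN replicate 1 has the highest ratio in the 3 panels.

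The genes of the activator PA28, which interferon gamma also induces, did not share the high level of TN replicate 1 in the immunoproteasome genes. *PSME1* had 48.0, 137 and 86.3 CPM in TN cows, 126, 134 and 91.4 CPM in PF cows and 106, 87.4 and 126 CPM in HS cows. *PSME2* had 50.5, 90.8 and 74.4 CPM in TN cows, 50.5, 91.8 and 70.6 CPM in PF cows and 54.0, 78.6 and 72.0 CPM in HS cows. The levels of both overlapped between all groups, and TN replicate 1 was the lowest cow in both, level with PF replicate 1 in *PSME2*. TN replicate 2 was the highest cow in *PSME1*, narrowly above PF replicate 2, and lay narrowly below PF replicate 2 in *PSME2*. *PSME3*, the nuclear form of PA28, had 24.6 to 33.8 CPM in TN, 25.8 to 40.9 CPM in PF and 31.0 to 36.4 CPM in HS cows. *PSMF1*, the proteasome inhibitor PI31, had 32.4 to 60.1 CPM in TN, 49.9 to 63.8 CPM in PF and 46.8 to 74.2 CPM in HS cows.

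*PSMC3IP*, with 0 to 37 counts per cow, had 0.939, 0.741 and 2.03 CPM in TN cows, 0 (at most 3 counts), 0.614 and 0.764 CPM in PF cows and 0.590, 2.16 and 0.471 CPM in HS cows. Its groups overlapped in every pair, and the counts of genes over 1.5-fold that include it rest on these few reads.

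The partners of the proteasome were described from a list of 37 genes for ubiquitin, its activating enzymes, shuttle factors and proteasome-associated proteins, of which 36 were listed and tested. None was a DEG by edgeR in any pair. In HS vs. TN the unadjusted p was under 0.05 in 1 of 36 genes lower and 0 higher, where 5.23% and 4.13% of all genes were. In HS vs. PF it was in 1 lower and 0 higher, where 2.25% and 3.07% were, and in PF vs. TN in 0 lower and 0 higher, where 3.89% and 2.99% were. The gene was *ZFAND5* in both pairs, whose product binds the proteasome and stimulates its activity. It had 44.2, 48.6 and 55.0 CPM in HS cows, 75.7, 62.6 and 85.6 CPM in TN cows and 73.9, 94.7 and 63.3 CPM in PF cows. All HS cows were below all cows of the other groups, for a log2 difference of -0.62 (SE 0.22, FDR 0.471) against TN and -0.65 (SE 0.23, FDR 0.759) against PF. *UBA6*, a ubiquitin-activating enzyme, had 18.3, 15.7 and 18.6 CPM in HS cows and 9.26, 13.5 and 13.8 CPM in TN cows, for a log2 difference of 0.51 (SE 0.23, FDR 0.522). *POMP*, the maturation factor of the core, had 106, 96.4 and 122 CPM in HS cows, 80.2, 131 and 119 CPM in TN cows and 162, 151 and 100.5 CPM in PF cows, which overlapped between all groups. The median log2 fold change of the list was 0.05 in HS vs. TN, -0.13 in HS vs. PF and 0.17 in PF vs. TN, and the last was 0.02 without TN replicate 1.

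A list of 29 genes of interferon gamma signalling and antigen presentation, of which 27 were tested, had a median log2 fold change of -0.04 in HS vs. TN, 0.11 in HS vs. PF and -0.19 in PF vs. TN. *CALR*, a chaperone of the endoplasmic reticulum that also takes part in loading MHC class I, averaged 637 ± 122 CPM in the HS group against 283 ± 90.7 CPM in the TN group (SD, n = 3 each). Its log2 fold change was 1.16 (SE 0.36), with an FDR of 0.419 by edgeR and 0.0167 by DESeq2, so that it was called by the second tool alone. It was the 1 gene of the 27 that DESeq2 called, where it called 1.32% of all genes. The PF group averaged 458 ± 146 CPM (SD, n = 3), over 1.5-fold higher than the TN group. In HS vs. PF the log2 fold change of *CALR* was 0.47 (SE 0.31), the groups overlapped and neither tool called it. *NLRC5*, the transactivator of MHC class I genes and of immunoproteasome genes, averaged 14.7 ± 1.38 CPM in the PF group against 22.0 ± 2.95 CPM in the TN group (SD, n = 3 each). The PF cows were all below the TN cows, for a log2 difference of -0.59 (SE 0.24, FDR 0.708). *TAP1*, the peptide transporter gene that lies between *PSMB8* and *PSMB9* in ARS-UCD2.0, had 31.7, 42.3 and 21.2 CPM in TN cows, 26.1, 21.3 and 26.0 CPM in PF cows and 29.2, 22.3 and 24.4 CPM in HS cows. As in the immunoproteasome genes, TN replicates 1 and 2 were the highest cows, while TN replicate 3 was the lowest of the 9.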

How the data were processed

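The values used were the authors' deposited read counts per gene of 9 liver libraries, without normalization. Per the paper's methods and the labels, reads were filtered with fastp 0.23.2, aligned to ARS-UCD1.2 with STAR 2.7.9a and counted with featureCounts 2.0.3, and the annotation release, strand and multi-mapping settings are not given in the sources used here. Reads of overlapping genes could therefore be shared, and 11 of the proteasome genes overlap another protein-coding gene on ARS-UCD2.0 (RefSeq), which was used for names and neighbours only. Among the 11 are *PSMB5*, which overlaps *PSMB11*, and *PSMB10*, *PSMD6*, *PSMD13*, *PSME1* and *PSMG2*. The part of shared reads in the levels of these genes, or in the 0 counts of *PSMB11*, was not tested. All 49 symbols matched ARS-UCD2.0. The number of columns left out was 0.

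For each comparison, all genes of its 6 libraries were fitted with edgeR 4.0.16 in R 4.3.3 (TMM, filterByExpr, quasi-likelihood F test, Benjamini-Hochberg FDR), and DESeq2 1.42.0 was an alternative. DEGs were changed over 1.5-fold at an FDR below 0.1. Levels are TMM-normalized CPM of the 9 libraries, log2 CPM had a pseudocount of 0.5, and levels are not compared between genes, since transcript lengths were not used. Ratios were compared by exact permutation over cows with scipy 1.17.1, with adjustment over 9 tests. The scripts were tested on simulated counts. The intervals come from the fit, at 95%, and the limit for a count of 0 covers counting error only.

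Named with every cow's value were the catalytic genes and their counterparts, *PSME1* and *PSME2*, and per pair the 3 genes with the smallest p in each direction, and up to 3 per list and pair were named of the other lists. *PSMG2*, *PSMC6*, *PSMD13*, *PSME3*, *PSMF1*, *PSMC3IP*, *POMP*, *TAP1*, *LCAT* and *ISG15* were named after their values were seen. The members and lists were chosen with earlier results of these data known. The alternatives were DESeq2, RLE size factors, mitochondrial genes left out, a fit of all libraries together, no low-count filter, a minimum of 10 counts in each sample, a replicate block, an FDR under 0.05, 10 counts added to both genes of a ratio, and each cow left out in turn.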

Additional observations from a re-analysis of the deposited data

How the results depend on the processing

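The number of proteasome genes called stayed at 0 in each pair under all 14 alternatives, of which the FDR under 0.05 could not add a gene. In PF vs. TN the main edgeR fit called 0 of all 14580 genes, so the count of 0 proteasome genes says little there. Whether the replicate numbers pair the cows could not be told. Of the 9 same-numbered pairs of cows, 3 had a correlation of deviations over 0.1, the highest of them 0.24, while differently numbered pairs reached 0.30. With the replicate block, the median log2 fold change of the proteasome genes was 0.14 in HS vs. TN, -0.28 in HS vs. PF and 0.42 in PF vs. TN, and the block changed no call. In HS vs. PF, the replicate block turned *PSMB8* to 0.020 and *PSMG4* to 0.017, and *PSMG4* was 0.0037 with no filter on low counts, 0.0013 with at least 10 counts in every sample and 0.00041 with all libraries in 1 fit. With all cows, their values without the block were -0.02 for *PSMB8* and -0.0032 for *PSMG4*.

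With each cow left out in turn, the sign changed for these log2 fold changes, and beyond the cows left out the cause was not tested. In HS vs. TN the range was -0.15 to 0.26 for the median of the proteasome genes, -0.35 to 0.16 for *PSMB3*, -0.19 to 0.61 for *PSMB5*, -0.24 to 0.42 for *PSMB6* and -0.36 to 0.16 for *PSMB7*. It was -0.040 to 0.28 for *PSMC4*, -0.070 to 0.66 for *PSME1*, -0.28 to 0.12 for *PSME2*, -0.0066 to 0.65 for *PSMD10* and -1.21 to 0.32 for *PSMC3IP*. For the log2 ratios it was -0.90 to 0.070 for *PSMB9* to *PSMB6* and -0.77 to 0.013 for *PSMB10* to *PSMB7*. In HS vs. PF it was -0.20 to 0.21 for *PSMB8*, -0.17 to 0.086 for *PSMB10*, -0.29 to 0.28 for *PSMD6*, -0.25 to 0.17 for *PSME2*, -0.13 to 0.34 for *PSMD9* and -0.13 to 0.20 for *PSMG4*. In PF vs. TN it was -0.25 to 0.19 for *PSME2*, -0.28 to 0.036 for *PSME4* and -0.13 to 0.36 for *PSMG1*. With 3 cows per group, a difference whose 95% interval held 0 could not be told from 0. No proteasome gene passed the FDR threshold, and the smallest exact permutation p for a ratio was 0.1.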
